A study of Mus musculus with 6 samples.

Results

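Macroautophagy is the route by which a cell encloses cytoplasm in a double membrane, the autophagosome, and delivers it to the lysosome for breakdown. The expression of 37 genes of this route was examined in Lewis cells, a mouse lung carcinoma line, after treatment with SD70, a small-molecule inhibitor of the histone demethylase KDM4C, or with the solvent DMSO. The genes were grouped by their known functions, with earlier results of these data known, and comprised the core machinery, the cargo receptors and a pair of transcription factors that switch on autophagy and lysosomal genes. All 37 were among the 16081 genes listed, and 36 passed the filter on low counts that left 11552 genes for testing. RNA-seq was performed on 3 samples treated with DMSO and 3 treated with SD70, both for 24 hours, without any genetic change in either group. The dose of SD70 used for RNA-seq is not given in the sources used here, and the labels do not say whether the 3 samples of a group came from separate cultures. The methods state in general that experiments were repeated independently, without naming RNA-seq. The p-values set each difference between the groups against the spread between these samples, part or all of which may be technical. Total counts per sample ranged from 15276744 to 17060424.

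Autophagosome formation starts when the ULK1 kinase complex is released from inhibition by mTORC1. A class III phosphatidylinositol 3-kinase complex then makes the lipid PI3P on the forming membrane, WIPI proteins bind that lipid, and ATG9 and ATG2 supply membrane. A ubiquitin-like conjugation cascade attaches proteins of the ATG8 family to the membrane, where cargo receptors dock on them and bring in ubiquitinated proteins, damaged organelles or other cargo. The transcription factors TFEB and TFE3 bind the E-box CACGTG within the so-called CLEAR element of many lysosomal and autophagy genes. Tumour cells use the route to recycle nutrients under stress.

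With SD70, 12 of the 36 autophagy genes tested rose and 14 fell at an adjusted p under 0.01, and 10 did not pass the test. The shares were 33.3% higher and 38.9% lower, beside 25.8% and 24.2% of all genes tested. The largest rises were those of Sqstm1 and Wipi2 and the largest fall was that of Tfeb, by the fitted log2 fold change. No autophagy gene passed the second rule, which also asks for a log2 fold change of 1 or more in size and was passed by 5.9% of all genes tested. The count was 0 in edgeR, 0 at an unadjusted p under 0.05 and 0 in DESeq2. Tfeb, with a log2 fold change of −0.98, was nearest to that line, and it passed (count of 1) without DMSO replicate 1 (−1.01), without DMSO replicate 3 (−1.01), without SD70 replicate 2 (−1.17) or when scaled by library totals alone (−1.02). The median log2 fold change of the 36 genes was −0.10, beside −0.0043 for all genes tested, and the median absolute log2 fold change was 0.29, beside 0.25. The samples of both groups did not overlap for 30 of the 36 genes (83.3%), beside 64.4% of all genes tested. The autophagy genes moved in both directions, and their median size of change was close to that of all genes.

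**Figure D1:**
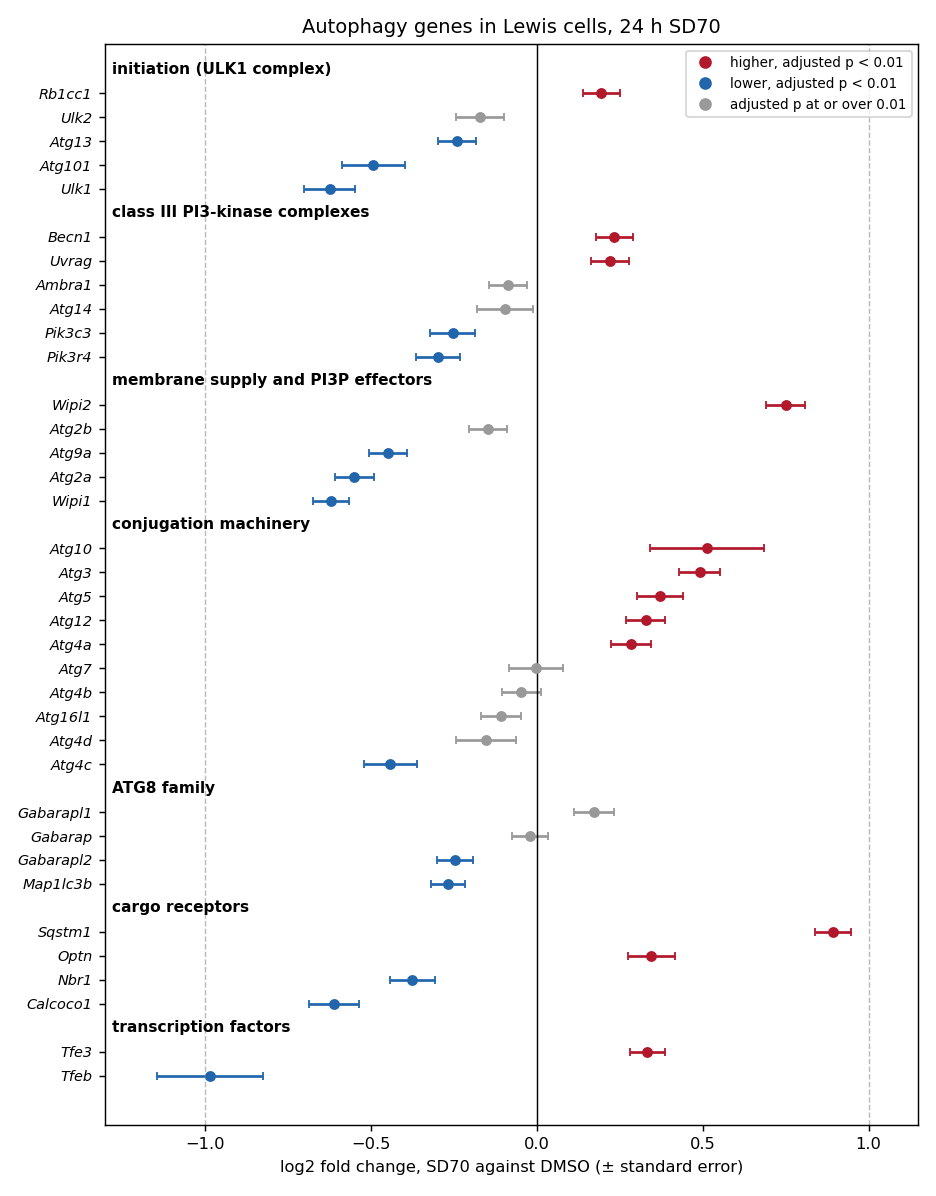
Log2 fold change of the 36 autophagy genes tested, SD70 against DMSO, with the standard error as horizontal bars, grouped by role. Red points are the 12 genes that rose and blue points the 14 that fell at an adjusted p under 0.01, grey points are the 10 that did not pass, and the dashed lines mark log2 fold changes of −1 and 1, which no point passes.

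The DNA upstream of these genes was read for short motifs, since TFEB and TFE3, which bind the E-box, changed in opposite directions. RefSeq promoter windows of build GRCm38.p6 were matched for 31 of the 37 genes, with 37 start sites. Rb1cc1, Becn1, Pik3c3, Atg12, Atg16l1 and Map1lc3a had no entry. The 250 bases before each start were searched on both strands for CACGTG (the E-box), TGATGNAA (the C/EBP-ATF composite element), TGACNNNGC (the core of the antioxidant response element), TGANTCA (the AP-1 site) and GGGCGG (the GC box bound by SP and KLF factors). CACGTG and TGANTCA read alike on both strands, and no motif was required to be free of overlap with another. Stretches are shown for the 3 genes with an E-box and for Sqstm1, Ulk1 and Wipi1, which had large changes. Other genes with large changes are not shown, among them Tfeb, with GC boxes, and Atg2a, without a match of any motif. The stretches below hold no exon of the GENCODE M21 annotation. They run 5′ to 3′ on the strand of the gene, and capitals mark every match.
Atg3: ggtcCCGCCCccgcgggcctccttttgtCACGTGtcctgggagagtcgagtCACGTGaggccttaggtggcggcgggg
Atg5: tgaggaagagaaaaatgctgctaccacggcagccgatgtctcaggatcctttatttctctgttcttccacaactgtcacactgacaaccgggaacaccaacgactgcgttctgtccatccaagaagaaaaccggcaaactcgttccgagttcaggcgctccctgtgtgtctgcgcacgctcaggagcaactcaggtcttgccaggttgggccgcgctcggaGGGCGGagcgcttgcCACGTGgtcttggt
Atg7: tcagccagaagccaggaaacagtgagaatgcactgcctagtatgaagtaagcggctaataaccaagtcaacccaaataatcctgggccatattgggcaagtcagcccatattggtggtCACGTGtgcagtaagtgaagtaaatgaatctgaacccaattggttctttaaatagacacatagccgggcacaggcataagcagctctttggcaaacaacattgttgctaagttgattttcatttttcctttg
Sqstm1: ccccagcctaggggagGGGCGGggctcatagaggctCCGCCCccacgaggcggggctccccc
Ulk1: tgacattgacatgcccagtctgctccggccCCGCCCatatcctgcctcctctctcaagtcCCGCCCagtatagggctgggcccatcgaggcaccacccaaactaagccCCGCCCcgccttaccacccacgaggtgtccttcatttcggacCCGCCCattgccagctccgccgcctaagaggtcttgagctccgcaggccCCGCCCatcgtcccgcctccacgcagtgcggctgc
Wipi1: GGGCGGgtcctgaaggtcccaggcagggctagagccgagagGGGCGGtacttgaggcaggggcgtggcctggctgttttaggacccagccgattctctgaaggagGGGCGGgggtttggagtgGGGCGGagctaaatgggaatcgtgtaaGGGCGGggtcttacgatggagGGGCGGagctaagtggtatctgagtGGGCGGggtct
The stretches lie at chr16:45158707-45158784 (plus strand) for Atg3, chr10:44268089-44268338 (plus) for Atg5, chr6:114670846-114671095 (plus) for Atg7, chr11:50210828-50210889 (minus) for Sqstm1, chr5:110810098-110810331 (minus) for Ulk1 and chr11:109611433-109611639 (minus) for Wipi1. The Atg7 stretch precedes a start site inside the span of the gene, which opens at position 114643127 in the RefSeq gene table. The span of Atg5 in that table opens at position 44268322, so that the last bases of its stretch, E-box included, lie within the gene span.

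The E-box was found in 3 of the 31 matched genes. Atg3 carried 2 copies, at bases 94 to 89 and 71 to 66 before its start, Atg5 carried 1 at bases 14 to 9, and Atg7 carried 1 at bases 132 to 127. Over all 32851 promoter windows, 6.02% held the E-box, beside 8.11% of the 37 windows of autophagy genes. Of the 9 matched genes that rose, 2 held it (Atg3 and Atg5), and of the 13 matched genes that fell, 0 did. The GC box was found in 23 of the 37 windows (62.2%), beside 32.7% of all windows. All windows include those of genes that were not tested here, and a share over tested genes alone was not computed. The windows of the Atg4c starts share bases. Counted by gene, 21 of the 31 matched genes held the GC box in at least 1 of their windows. They included 9 of the 9 that rose and 6 of the 13 that fell, and the rest were genes that did not pass. Sqstm1 was in the first group and Ulk1 and Wipi1 in the second. A share by gene was not computed for all genes, so these counts have no like base. TGACNNNGC was found upstream of Atg13 and Ulk2 (10.2% of all windows), and neither TGATGNAA (3.45% of all windows) nor TGANTCA (6.75%) occurred in a window of an autophagy gene. These are matches of letters and were not tested as binding sites.

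Among the ULK1 complex, which starts autophagosome formation, 3 genes fell, 1 rose and 1 did not pass the test, beside 24.2% of all genes that fell and 25.8% that rose. Ulk1, the kinase that starts the process, had normalized counts of 572, 527 and 505 in DMSO samples and 333, 365 and 343 in SD70 samples. Its level was thus lower in every SD70 sample, with a log2 fold change of −0.62 (SE 0.08, adjusted p = 1.3e-08). Normalized counts are counts scaled to a common library size. Atg101, a partner of ATG13 in the complex, had 265, 303 and 337 normalized counts with DMSO and 215, 215 and 213 with SD70. All SD70 values lay below the DMSO values, and the log2 fold change was −0.49 (SE 0.10, adjusted p = 3.9e-05). Atg13, the adaptor that links the kinase to its partners, fell by 0.24 on the log2 scale (SE 0.06, adjusted p = 0.00053). Rb1cc1, which encodes the large scaffold FIP200, rose by 0.19 (SE 0.06, adjusted p = 0.0031). That rise did not pass the test without DMSO replicate 2 (log2 fold change 0.19, adjusted p = 0.016), without DMSO replicate 3 (0.15, 0.040) or without SD70 replicate 1 (0.13, 0.037), nor when scaled by library totals alone (0.16, 0.016) or on FPKM in limma (0.15, 0.058 with a pseudocount of 1 and 0.15, 0.057 with 0.1). Ulk2, the paralogue of Ulk1, had 490 to 547 normalized counts with DMSO and 452 to 475 with SD70, a log2 fold change of −0.17 that did not pass (adjusted p = 0.042).

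In the class III PI3-kinase complexes, which make PI3P, 2 genes rose, 2 fell and 2 did not pass, and every log2 fold change was under 0.3 in size. The shares of 33.3% in each direction are near those of all genes (25.8% higher and 24.2% lower). Becn1 (beclin 1), the regulatory subunit shared by both complexes, rose from 1215 ± 36.3 to 1429 ± 60.2 normalized counts, given as mean and SD over 3 samples, which is a log2 fold change of 0.23. Uvrag, the subunit of the complex that acts in endosome and autophagosome maturation, rose from 1451 ± 84.5 to 1691 ± 95.6, a log2 fold change of 0.22. The catalytic subunit and its kinase-like partner went the other way. Pik3c3, which encodes the lipid kinase VPS34, fell from 719 ± 32.5 to 603 ± 31.97, a log2 fold change of −0.25. Pik3r4, which encodes the VPS15 subunit, fell from 839 ± 19.6 to 682 ± 61.4, a log2 fold change of −0.30. The adjusted p-values were 0.00052 for Becn1, 0.0013 for Uvrag, 0.0015 for Pik3c3 and 0.00024 for Pik3r4. Atg14, the subunit that directs the complex to autophagosome formation, had 296 to 333 normalized counts with DMSO and 286 to 303 with SD70 (log2 fold change −0.10, adjusted p = 0.33). Ambra1, a regulator of beclin 1, had 1145 to 1258 and 1119 to 1153 (log2 fold change −0.09, adjusted p = 0.19). For both of these genes the groups overlapped. With single samples left out Atg14 ranged from −0.14 to −0.06 and Ambra1 from −0.13 to −0.06, and neither passed. The Uvrag call was lost without DMSO replicate 2 (log2 fold change 0.16, adjusted p = 0.038) or SD70 replicate 3 (0.17, 0.020) and on FPKM in limma (0.18, 0.019 with a pseudocount of 1 and 0.19, 0.018 with 0.1), and the Pik3c3 call without DMSO replicate 3 (−0.23, 0.011) or SD70 replicate 1 (−0.21, 0.013).

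The genes for membrane supply and PI3P binding had the widest spread of responses among the groups of the core machinery, from −0.62 for Wipi1 to 0.75 for Wipi2. Wipi2, the PI3P effector that recruits the conjugation machinery through ATG16L1, had 1882, 1876 and 1812 normalized counts with DMSO and 2944, 2938 and 3487 with SD70. The lowest SD70 sample lay well above the highest DMSO sample, and the gene was 1.68-fold higher (log2 fold change 0.75, SE 0.06, adjusted p = 6.7e-13). Wipi1, a second PI3P effector of the same family, had 1692, 1618 and 1616 under DMSO and 1083, 1045 and 1078 under SD70. It moved the other way, with no overlap between the groups, to a level 1.54-fold lower (log2 fold change −0.62, SE 0.05, adjusted p = 7.7e-12). Atg2a, a lipid transfer protein, had 1274, 1236 and 1248 normalized counts with DMSO and 799, 858 and 913 with SD70, a log2 fold change of −0.55 (SE 0.06, adjusted p = 9.0e-10). Atg9a, the scramblase carried on small vesicles, had 1161, 1133 and 1181 with DMSO and 836, 842 and 868 with SD70, a log2 fold change of −0.45 (SE 0.06, adjusted p = 3.2e-08). In both genes every SD70 sample lay below every DMSO sample. Atg2b, the paralogue of Atg2a, had 1431 to 1544 under DMSO and 1236 to 1415 under SD70, and its log2 fold change of −0.15 did not pass (adjusted p = 0.028), whereas it passed without SD70 replicate 3 (−0.20, adjusted p = 0.0070) and when scaled by library totals alone (−0.19, adjusted p = 0.0061). With single samples left out it ranged from −0.20 to −0.09, the smallest fall being without SD70 replicate 2 (adjusted p = 0.19).

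Of the conjugation machinery, 5 of 10 genes rose, 1 fell and 4 did not pass, where 25.8% of all genes tested rose and 24.2% fell. One of the genes that rose, Atg10, did not keep the call in most alternatives. ATG12 and the ATG8 proteins are activated by the same E1-like enzyme, ATG7, and are then passed to separate E2-like enzymes. Atg3, the E2-like enzyme for the ATG8 proteins and the gene with 2 E-boxes, had 721, 766 and 824 normalized counts with DMSO and 1139, 1075 and 1033 with SD70. The groups were well apart and the log2 fold change was 0.49 (SE 0.06, adjusted p = 2.9e-08). Atg5, which is joined to ATG12 and has an E-box just before its listed start site, had 524, 597 and 553 with DMSO and 774, 679 and 713 with SD70, a log2 fold change of 0.37 (SE 0.07, adjusted p = 2.5e-05). Atg12, the ubiquitin-like partner of ATG5, had 1102, 1024 and 1028 with DMSO and 1366, 1232 and 1364 with SD70, a log2 fold change of 0.33 (SE 0.06, adjusted p = 1.1e-05). The genes for both proteins of the ATG12-ATG5 conjugate were higher in each SD70 sample than in any DMSO sample. Atg10, the E2-like enzyme for ATG12, was expressed at a low level, with 57.5, 45.7 and 46.0 normalized counts with DMSO and 68.0, 73.5 and 71.5 under SD70. Its log2 fold change of 0.51 (SE 0.17) was just past the threshold (adjusted p = 0.0099) and passed in 4 of 14 alternatives. Leaving out a single sample other than DMSO replicate 1 ended the call, with log2 fold changes of 0.44 without DMSO replicate 2, 0.45 without DMSO replicate 3, 0.55 without SD70 replicate 1, 0.49 without SD70 replicate 2 and 0.50 without SD70 replicate 3.

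The remaining genes of the conjugation group encode the ATG4 proteases, which prepare ATG8 proteins and release them from membranes, the E1-like enzyme and the ATG16L1 scaffold. The 4 proteases did not move together. Atg4a rose from 1079 ± 73.0 to 1315 ± 73.7 normalized counts, a log2 fold change of 0.28 (SE 0.06, adjusted p = 0.00013). Atg4c had 539, 472 and 444 with DMSO and 344, 365 and 363 with SD70, a log2 fold change of −0.44 (SE 0.08, adjusted p = 1.5e-05), with no overlap between the groups. Atg4b, with 999.8 to 1054 normalized counts under DMSO and 964 to 1025 under SD70, did not pass (log2 fold change −0.05, adjusted p = 0.51). With single samples left out Atg4b ranged from −0.07 to −0.03 and did not pass. Atg4d had 275 to 322 and 252 to 287 (log2 fold change −0.15, adjusted p = 0.14), but it was called lower on the deposited FPKM values in limma, with log2 differences of −0.32 with a pseudocount of 1 and −0.36 with 0.1. On counts with single samples left out it did not pass and ranged from −0.22 without DMSO replicate 1 (adjusted p = 0.0501) to −0.10 without SD70 replicate 1 (adjusted p = 0.40). Its count was not a whole number in 5 of 6 samples, and its exons overlap those of Kri1 on the opposite strand. Atg7 had 358 to 373 normalized counts under DMSO and 323 to 395 under SD70, the latter range enclosing the former. Its log2 fold change of −0.0025 (adjusted p = 0.98) turned to 0.08 without SD70 replicate 1. Atg16l1 had 925 to 993 and 845 to 920, a log2 fold change of −0.11 that did not pass (adjusted p = 0.12) although the groups did not overlap.

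In the ATG8 family, whose lipid-linked members coat the autophagosome and bind receptors, 2 of the 4 genes tested fell and 2 did not pass, beside 24.2% of all genes that fell. The count of genes that rose was 0 in edgeR and 0 in DESeq2, and 1 (Gabarapl1) at an unadjusted p under 0.05. Map1lc3b, which encodes the widely used autophagosome marker LC3B, fell from 2783 ± 84.4 to 2313 ± 77.9 normalized counts, a log2 fold change of −0.27 (SE 0.05, adjusted p = 2.9e-05). Gabarapl2 (GATE-16) fell from 1757 ± 9.24 to 1480 ± 90.3, a log2 fold change of −0.25 (SE 0.06, adjusted p = 0.00024). Gabarapl1 had 805 to 859 under DMSO and 899 to 973 under SD70. Its groups did not overlap, but its log2 fold change of 0.17 passed the threshold only without SD70 replicate 2 (0.21, adjusted p = 0.0094), the adjusted p with all samples being 0.014. Gabarap had 3095 to 3385 and 2959 to 3469, and its log2 fold change of −0.02 (adjusted p = 0.75) took the other sign without DMSO replicate 3 (0.0001) or without SD70 replicate 3 (0.03). Map1lc3a (LC3A) had counts of 0, 0 and 0 with DMSO and 0, 1 and 0 with SD70, and it did not enter the test. A count of 0 allows up to 3 counts in a library, counting error only.

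Of the 4 cargo receptors 2 rose and 2 fell, where 25.8% of all genes tested rose and 24.2% fell. Sqstm1, which encodes p62, a receptor for ubiquitinated proteins that is itself degraded by autophagy, had 6530, 6691 and 7098 normalized counts under DMSO and 11580, 12520 and 13620 under SD70. Its lowest SD70 sample lay far above its highest DMSO sample, and the gene was 1.86-fold higher (log2 fold change 0.89, SE 0.05, adjusted p = 9.3e-16). Leaving out single samples gave 0.82 to 0.95. Optn (optineurin), a receptor in the clearance of mitochondria and bacteria, had 484, 452 and 452 with DMSO and 612, 558 and 593 with SD70, a log2 fold change of 0.35 (SE 0.07, adjusted p = 8.7e-05). Nbr1, a receptor with the same domain plan as p62, had 760, 738 and 747 with DMSO and 596, 610 and 523 with SD70, a log2 fold change of −0.38 (SE 0.07, adjusted p = 1.4e-05). Nbr1 and Sqstm1 thus moved in opposite directions, each without overlap between the groups. Calcoco1, a receptor for the endoplasmic reticulum and Golgi, had 722, 624 and 603 with DMSO and 410, 429 and 438 with SD70, a log2 fold change of −0.61 (SE 0.08, adjusted p = 1.4e-08). The fall of Calcoco1 was similar in size to those of Ulk1 and Wipi1.

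The pair of transcription factors also split. Tfeb had 100, 110 and 101 normalized counts with DMSO and 43.6, 64.6 and 48.4 with SD70. It was a low gene, and its highest SD70 sample was still below its lowest DMSO sample (log2 fold change −0.98, SE 0.16, adjusted p = 2.5e-06). Tfe3, its relative that binds the same E-box, had 1235, 1197 and 1231 with DMSO and 1520, 1541 and 1555 with SD70. All SD70 samples were higher, with a log2 fold change of 0.33 (SE 0.05, adjusted p = 2.3e-06). Both proteins are controlled largely by phosphorylation and entry into the nucleus, which RNA levels do not measure.

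**Figure D2:**
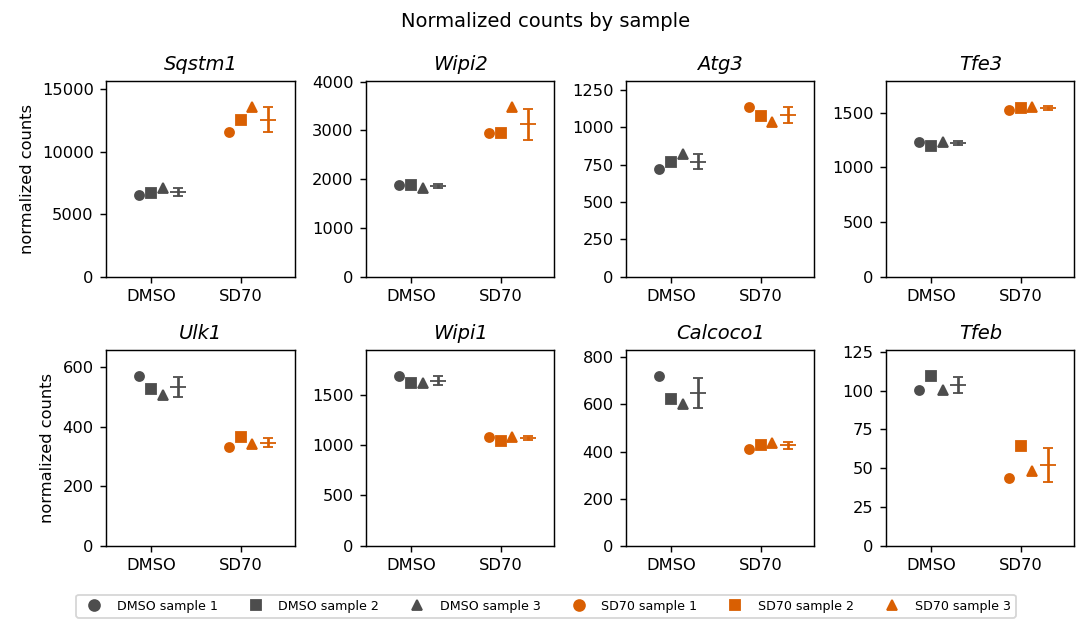
Normalized counts (vertical axis, from 0) of Sqstm1, Wipi2, Atg3 and Tfe3 (top) and of Ulk1, Wipi1, Calcoco1 and Tfeb (bottom) in the 3 DMSO samples (grey) and 3 SD70 samples (orange), with the mean and SD beside the points. In each of the 8 genes the SD70 samples lie all above (top) or all below (bottom) the DMSO samples.

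Levels of different genes were compared per gene length, as FPKM, a count scaled by gene length and library size. Count and FPKM did not keep one proportion in every gene. Atg4d had 282 counts and 8.42 FPKM in DMSO replicate 1 but 332 and 8.69 in DMSO replicate 2. The length that the submitters used is not given in the sources used here. In DMSO samples Sqstm1 (223 ± 8.20 FPKM, SD, n = 3) and Gabarap (209 ± 7.36) were highest, followed by Gabarapl2 (132 ± 1.82), Map1lc3b (110 ± 2.66), Wipi1 (60.9 ± 1.89) and Becn1 (39.9 ± 1.29). No neighbours among these 6 overlapped over the DMSO samples. From Atg4a (32.6 ± 2.10) down to Nbr1 (10.4 ± 0.142) most neighbours in the order overlapped and are not separated by these data. The lowest levels were those of Tfeb (3.01 ± 0.168 FPKM), Atg10 (2.06 ± 0.335) and Map1lc3a, which was listed at 0. With SD70, Sqstm1 reached 406.5 ± 34.4 FPKM, while Gabarap stood at 202.5 ± 14.8, Gabarapl2 at 110.0 ± 5.98 and Map1lc3b at 89.9 ± 3.06. Wipi2 went from 29.8 ± 0.700 to 49.0 ± 4.97 FPKM and Wipi1 to 38.9 ± 0.814. Their places among the other genes with SD70 are not separated by these data, since Wipi2 overlapped Becn1 and Wipi1 overlapped Atg3 and Atg4a over the SD70 samples.

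**Figure D3:**
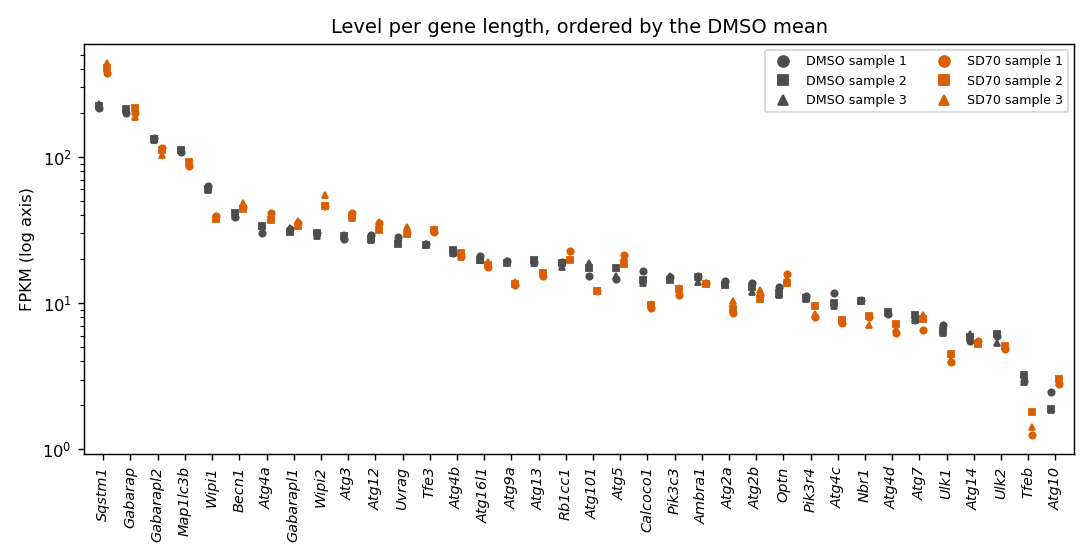
FPKM (log axis) of the 36 autophagy genes tested in each of the 6 samples, ordered from left to right by the mean of the DMSO samples (grey), with the SD70 samples in orange. Sqstm1 stands highest in both groups, Wipi2 rises above Wipi1 with SD70, and Tfeb and Atg10 are lowest.

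Related genes that moved apart were also set against each other as ratios of FPKM, for pairs chosen with the changes above known, so that the ratios are a description. Wipi2 stood at 0.480, 0.5002 and 0.488 times the level of Wipi1 under DMSO and at 1.17, 1.22 and 1.39 times under SD70. The order of the PI3P effectors was thus the reverse after treatment. The Tfe3 to Tfeb ratio went from 8.71, 7.75 and 8.72 to 24.7, 17.4 and 22.6. The Sqstm1 to Nbr1 ratio went from 20.5, 21.5 and 22.5 to 46.7, 49.2 and 62.3. In each of these pairs all SD70 ratios lay above all DMSO ratios. Smaller shifts were seen for Ulk1 to Ulk2 (mean 1.13 ± 0.0763 to 0.834 ± 0.0468), Atg2a to Atg2b (1.08 ± 0.0802 to 0.816 ± 0.0563) and Gabarapl1 to Gabarapl2 (0.240 ± 0.00799 to 0.320 ± 0.0294). The summed FPKM of the ATG8 family was 474, 486 and 489.5 with DMSO and 438, 456 and 419 with SD70, which do not overlap (exact two-sided permutation p = 0.1, the smallest that 3 against 3 samples can give). Within that sum Gabarap took 43.2 ± 0.795% with DMSO and 46.2 ± 1.41% with SD70, and Map1lc3b took 22.8 ± 0.162% and 20.6 ± 0.998%.

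**Figure D4:**
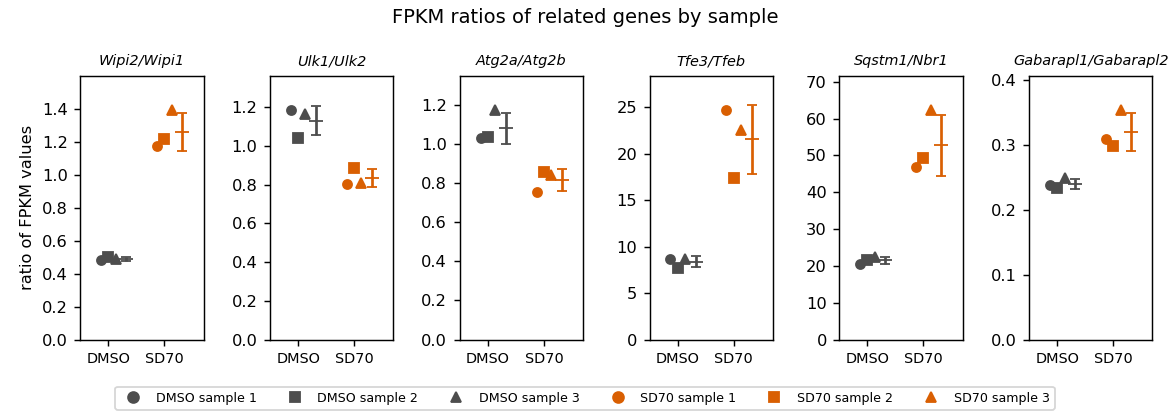
Ratio of FPKM values (vertical axes, from 0) of 6 pairs of related autophagy genes in each DMSO (grey) and SD70 (orange) sample, with the mean and SD beside the points. The groups do not overlap in any pair, and Wipi2 passes from below to above the level of Wipi1.

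A wider list of pathway genes, drawn up by known role with earlier results of these data known, was examined in the same fit. Of its 44 genes, 42 were tested, and Rubcnl and Tfec were not analysed here. With SD70, 12 rose (28.6%, beside 25.8% of all genes tested), 9 fell (21.4%, beside 24.2%) and 21 did not pass, with a median log2 fold change of 0.0071. These shares are near those of all genes. Among other receptors 5 of 17 rose and 5 fell. Bnip3, a mitochondrial receptor induced by hypoxia, had 7023, 6723 and 6923 normalized counts with DMSO and 3214, 3342 and 2588 with SD70, and with a log2 fold change of −1.18 (SE 0.07, adjusted p = 4.6e-10) it was the one gene of this list past the second rule. Bnip3l (NIX), its paralogue, had 8988, 8500 and 8773 with DMSO and 5969, 5660 and 5187 with SD70, a log2 fold change of −0.64 (SE 0.05, adjusted p = 7.3e-13). Bnip3 and Bnip3l were thus lower in every SD70 sample than in any DMSO sample, while of the list's other mitochondrial receptors Fundc1 fell by 0.20 on the log2 scale (adjusted p = 0.0057) and Fkbp8 (log2 fold change −0.12), Bcl2l13 (−0.09) and Phb2 (0.13) did not pass. Those 4 genes were picked for mention with their values in view. The Fundc1 call was lost without DMSO replicate 1 (log2 fold change −0.20, adjusted p = 0.016), DMSO replicate 2 (−0.18, 0.033), SD70 replicate 2 (−0.20, 0.016) or SD70 replicate 3 (−0.16, 0.043) and in DESeq2 (−0.20, 0.017). Stbd1, a receptor for glycogen, had 251, 235 and 246 with DMSO and 371, 453 and 524 with SD70, a log2 fold change of 0.88 (SE 0.10, adjusted p = 1.3e-08).

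In the tethering and fusion group, which joins autophagosomes to lysosomes, 4 of 13 genes rose (30.8%) and 3 fell (23.1%), near the 25.8% and 24.2% of all genes tested. Without DMSO replicate 2, the rises of Vps33a (log2 fold change 0.17, adjusted p = 0.048) and Vps39 (0.18, 0.030) and the fall of Vps11 (−0.22, 0.017) did not pass. Each was also lost without other samples: Vps33a without SD70 replicate 3 (adjusted p = 0.034), Vps39 without DMSO replicate 3 (0.011) or SD70 replicate 1 (0.019), and Vps11 without DMSO replicate 1 (0.038), SD70 replicate 1 (0.025) or SD70 replicate 3 (0.025). Vps33a was lost too with library totals alone (adjusted p = 0.015), in DESeq2 (0.014) and on FPKM in limma. Vps39 was lost on FPKM in limma (log2 fold change down to 0.13) and Vps11 in DESeq2 (adjusted p = 0.026). Epg5, a tether of autophagosomes and lysosomes, had 469, 462 and 466 normalized counts with DMSO and 826, 789.5 and 1030 with SD70, a log2 fold change of 0.92 (SE 0.08, adjusted p = 2.2e-10). Vps16, a subunit of the HOPS tether, fell by 0.24 (SE 0.06, adjusted p = 0.00055). Vamp8, the SNARE on the lysosome side, had a log2 fold change of −0.41 (SE 0.11, adjusted p = 0.0015), which was −0.26 and did not pass without SD70 replicate 1 (adjusted p = 0.028). Nor did it pass on FPKM in limma (adjusted p = 0.011 with a pseudocount of 1 and 0.015 with 0.1). Among other core genes and regulators 2 of 9 rose (22.2%) and 1 fell (11.1%), beside the same shares of all genes. Wdr45 (WIPI4), a further PI3P effector, rose by 0.54 (SE 0.09, adjusted p = 2.0e-06), and Nrbf2, a subunit of the ATG14 complex, by 0.36 (SE 0.07, adjusted p = 6.5e-05). Atg9b, the paralogue of Atg9a, had 93.6, 89.4 and 86.3 normalized counts with DMSO and 55.8, 51.6 and 48.4 with SD70, a log2 fold change of −0.78 (SE 0.16, adjusted p = 5.9e-05). Over the 14 alternatives that value ranged from −0.84 to −0.43, the smallest fall being on FPKM in limma, and the call held in each. Both ATG9 genes therefore fell. Of 3 other transcription factors, Foxo3, a forkhead factor known to act on autophagy genes, rose by 0.75 (SE 0.05, adjusted p = 1.6e-14), and the other two did not pass.

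The cell label was checked against marker genes. The epithelial keratin Krt8 had 3925 to 4150 counts with DMSO and 2382 to 2875 with SD70 (log2 fold change −0.55), and Krt18 had 77 to 101 and 31 to 41 (log2 fold change −1.22). The other epithelial markers, Cdh1 and Epcam, had 0 or 1 count in each sample, and the lung surfactant gene Sftpc also had 0 or 1. The summed counts of the 4 epithelial markers were 4018 to 4228 with DMSO and 2414 to 2916 with SD70. Whether that fall has a part in the changes of the autophagy genes was not tested, and in bulk RNA fewer cells of a type and less RNA per cell cannot be told apart. Of 6 immune markers 2 were listed, with summed counts of 0 to 1 with DMSO and 1 to 2 with SD70. Both endothelial markers were listed, at 56 to 69 and 61 to 65 summed counts, nearly all from Cdh5.

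The exons of 11 autophagy genes overlap another gene on the opposite strand in the GENCODE M21 annotation, and the sources used here do not say whether counting used strand. They are Sqstm1 (with Mrnip), Becn1 (Cntd1), Atg9a (Ankzf1), Atg2b (Gskip), Atg4d (Kri1), Map1lc3b (Zcchc14), Rb1cc1, Atg14, Uvrag, Gabarapl1 and Optn. Atg9a also overlaps a gene on its own strand. The reads of such partners cannot be told apart without strand. The count of Becn1 was not a whole number in any of the 6 samples.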

How the data were processed

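RNA-seq of Lewis cells treated with DMSO (3 samples) or SD70 (3 samples) for 24 hours was used, and groups were taken from the sample labels. The authors purified mRNA with oligo(dT) beads, sequenced it on the BGISEQ-500 platform and aligned clean reads to GRCm38.p6 with HISAT. The submitters' processing notes also name StringTie 1.3.3b and mm8, and the counting tool is not given in the sources used here. The authors deposited 1 table per sample with an expected count per gene (8.84 to 9.28% of values not whole) and a second value, which was read as FPKM because it scales with count over gene length and library total, a unit the tables do not name.

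Expected counts were rounded to whole numbers, filtered with filterByExpr, scaled by TMM (factors from 0.984 to 1.02) and fitted over the whole table with the quasi-likelihood test of edgeR 4.0.16 (R 4.3.3). P-values were adjusted by Benjamini-Hochberg over 11552 genes, and a gene was called at an adjusted p under 0.01. A stricter rule also asked for a log2 fold change of 1 or more in size. The biological coefficient of variation was 0.0460. The fits across all genes were also run on simulated counts, the outcome of which is not given here and is not used as support. Within groups, samples differed by more than counting noise, with a chi-square of 2.12 to 4.97 per gene, and none was dropped.

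The members, lists and motifs were chosen with earlier results of these data known. All 37 genes are given, with values per sample for called genes that changed by 0.3 or more on the log2 scale. From each further list the 3 called genes with the largest absolute change are named. Alternatives were DESeq2 size factors, library totals, no filter, at least 10 counts in every sample, the Wald test of DESeq2 1.42.0, limma 3.58.1 on log2(FPKM + 1) and log2(FPKM + 0.1), a replicate block, each sample left out and an adjusted p under 0.05. Gene spans and promoter windows came from RefSeq (GRCm38.p6), and exon overlaps from GENCODE M21.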

Additional observations from a re-analysis of the deposited data

How the results depend on the processing

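Of the 26 autophagy genes called, 22 kept their direction and their call in all 14 alternatives per gene. Rb1cc1, Uvrag, Pik3c3 and Atg10 lost the call in at least 1, and Atg2b, Atg4d and Gabarapl1 gained it in at least 1. The genes that rose numbered 10 to 13 over the other settings and 9 to 12 with single samples left out, and those that fell 14 to 16 and 13 to 15. The count past a log2 fold change of 1 was 1 (Tfeb) when scaled by library totals alone, and 0 to 1 with single samples left out. Gabarap ranged from −0.0799 to 0.0266 with single samples left out, its sign turning without DMSO replicate 3 (0.0001) and without SD70 replicate 3 (0.0266), and Atg7 from −0.0641 to 0.0829, turning without SD70 replicate 1. The cause was not tested. Of the wider list, 9 to 18 genes rose and 7 to 10 fell, and 15 of 21 called genes kept the call throughout.

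Replicate numbers gave no clear pairing of the samples: same-numbered deviations correlated at 0.168, −0.0263 and −0.0407 (Pearson). DMSO replicate 3 correlated best with SD70 replicate 2 (0.319), and DMSO replicate 1 with its own number. Deviations from a mean of 3 samples depend on one another, so this check cannot decide whether same-numbered samples were handled together. With the replicate block 11 autophagy genes rose and 14 fell, Atg10 being lost (adjusted p = 0.0102), and in the wider list 14 rose and 9 fell. Depth limits Map1lc3a, at or below 1 count in every sample, and Atg10 and Tfeb, the lowest genes tested.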
